A study of Ovis aries with 2 samples.

Results

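Erythroid cells with few metallothionein transcripts were examined in single-cell RNA libraries of Ujumqin and Hulunbuir sheep embryos at E16, embryonic day 16. A cell was a member when ALAS2, AHSP, KLF1 and HEMGN together gave at least 5 UMIs (unique molecular identifiers, counted transcripts) and at least 5 in every 10000 of its UMIs, and when MT1A, MT1C and MT2 together gave under 15 in every 10000. ALAS2 starts haem synthesis, AHSP holds free alpha globin, KLF1 is an erythroid transcription factor and HEMGN is a nuclear protein of blood cells. The rule found 4306 members among the 24137 cells that had at least 200 detected genes and less than 10% mitochondrial UMIs. Of these, 4302 were Ujumqin cells, 29.6% of the 14554 kept in that library (exact binomial 95% interval 28.8 to 30.3%). The other 4 were Hulunbuir cells, 0.0417% of 9583 (interval 0.0114 to 0.107%).

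Both breeds were sampled alike. Ewes of both received progesterone and PMSG before mating, extraembryonic tissue was taken off, the embryos of a breed were pooled, and red blood cells were lysed with a buffer during dissociation in both. Each breed, labelled Ujumqin and Hulunbuir Short-tail, is 1 library of pooled embryos, so a contrast between breeds could not be set against replicates. Breed, library and the red cells lost to the buffer cannot be told apart in the number of members. The deposited libraries held 17059 Ujumqin barcodes with 212933364 UMIs and 10709 Hulunbuir barcodes with 131385353 UMIs. A total of 61 barcode sequences occurred in both libraries, and 17 of these were Ujumqin members.

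Primitive erythroid cells are the first red cells of the embryo. They form in the blood islands of the yolk sac, enter the circulation as large nucleated cells, divide there while they fill with embryonic haemoglobin, and lose their nucleus late. Haem is built by enzymes that alternate between the mitochondrion and the cytosol, and iron reaches it by way of transferrin, its receptor and carriers of the mitochondrial membrane. Metallothioneins are small cysteine-rich proteins that bind zinc and copper and that are switched on by these metals through the transcription factor MTF1.

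The label was checked against markers that the rule did not use, with levels given as UMIs of a gene per 1000000 UMIs of all cells of a group (CPM) with exact 95% Poisson intervals. GATA1, the transcription factor of red cells and megakaryocytes, stood at 81.7 CPM in the Ujumqin members (interval 79.9 to 83.6) against 9.17 CPM in the other kept Ujumqin cells (8.58 to 9.79). SLC4A1, the anion exchanger of the red cell membrane, stood at 6.17 CPM against 0.315 CPM. Both erythroid markers were thus present, SLC4A1 at a low level. Whether the cells are primitive was not tested, because HBB, HBM and HBQ1 are the only haemoglobin symbols in the files and the embryonic globins have none. The intervals here cover counting error only, since cells of 1 library are not replicates, and UMIs were counted at the 3′ end, so that levels of different genes are not scaled by length.

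The members were deeply read cells. Their median was 21040.5 UMIs (lowest 1541, highest 80668) and 1669 genes (383 to 4674), against 1644 UMIs and 534 genes in the 9368 other kept Ujumqin cells. Scrublet, which scores doublets, marked 109 members, 2.53%, and these were kept. In the Hulunbuir library it marked 1 of 9583 cells, 0.0104%, which is too few for the caller to have worked there.

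AHSP and ALAS2 are abundant, and free RNA could give their UMIs to other cells. The parts of free RNA, doublets and shallow erythroid cells in the following shares were not tested. Of the other kept cells, 38.7% held a UMI of ALAS2, AHSP, KLF1 or HEMGN in the Ujumqin library and 1.00% in the Hulunbuir library, at median depths of 1644 and 11883 UMIs. With every cell thinned to 1000 UMIs, AHSP was seen in 67.8% of the Ujumqin members and in 9.63% of the other kept Ujumqin cells, and GATA1 in 7.79% against 1.64%. The rule used AHSP, so the direction of its difference was set by the choice of cells, while GATA1 was outside the rule. Thinning left out 3345 of the other cells and no member. Without thinning, GATA1 was seen in 77.5% of the members.

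The values that chose the cells spread as follows. The sum of ALAS2, AHSP, KLF1 and HEMGN had a median of 18.9 in every 10000 UMIs (5.05 to 51.5), and the metallothionein sum had a median of 1.36 (lowest 0, highest just under the limit of 15). A total of 1034 members, 24.0%, held no metallothionein UMI. Just outside the erythroid limit, 29 cells stood between 4.025 and 4.977 in every 10000, with a median of 40128 UMIs, and just inside it 23 members stood between 5.051 and 5.944. Below the metallothionein limit, 217 members stood between 12.01 and 14.99, and above it 128 cells stood up to 17.87. The metallothionein values ran on without a gap across the limit, so the limit cuts a range of erythroid cells and the members are not a separate type. The erythroid cells over the limit numbered 884, all in the Ujumqin library, and are called metallothionein-high cells here.

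**Figure D1:**
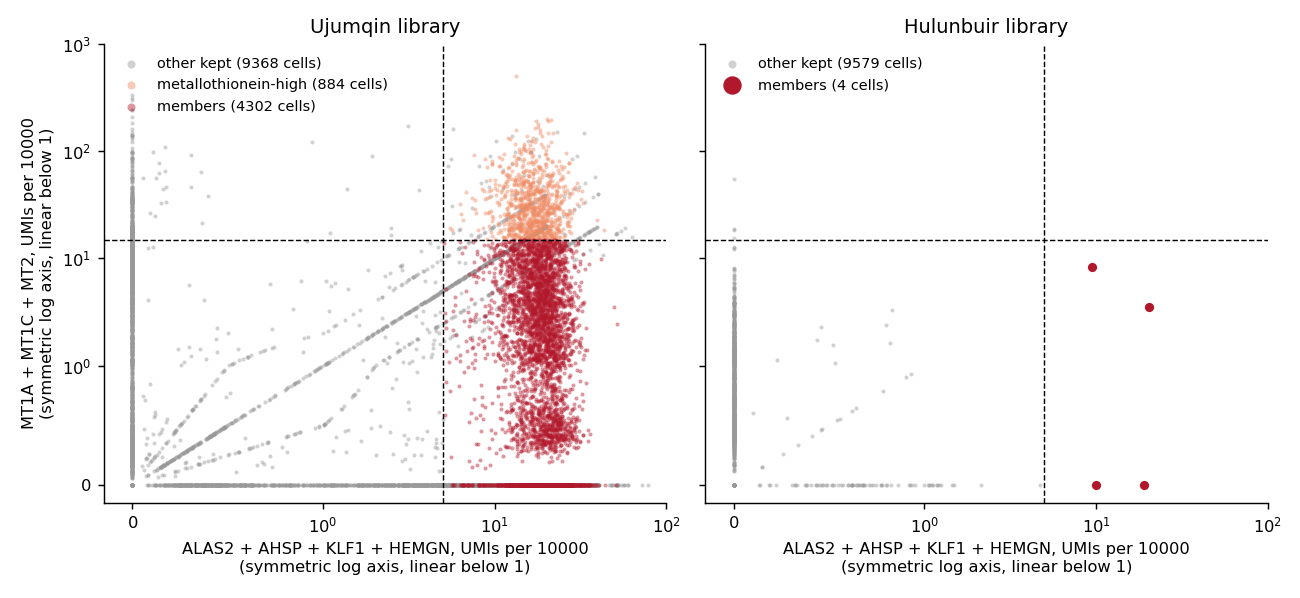
Each point is a kept cell of the Ujumqin library (left) or the Hulunbuir library (right), placed by its UMIs of ALAS2, AHSP, KLF1 and HEMGN (horizontal) and of MT1A, MT1C and MT2 (vertical) in every 10000 UMIs, on symmetric log axes, and dashed lines mark the limits of 5 and 15. The 4302 Ujumqin members lie right of and below the lines and the 884 metallothionein-high cells above them, 4 Hulunbuir cells qualify, and other kept cells drawn right of the vertical line hold fewer than 5 UMIs of the 4 genes.

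Few features took much of the members' RNA. The 4 features with most UMIs have no gene symbol and together gave 45.8% of the UMIs of the Ujumqin members, with a median of 47.7% per cell (3.88 to 66.7%). The first of them, ENSOARG00020015536, gave 20.4% and the second, ENSOARG00020004314, gave 17.4%. The 4 together gave 49.6% in metallothionein-high cells, 1.98% in other kept Ujumqin cells and 0.00489% in other kept Hulunbuir cells. Next came FTH1, the heavy chain of ferritin, with 1.39% of the members' UMIs, followed by ribosomal protein genes such as RPLP0 and RPS18. Symbols of ribosomal proteins gave 15.8% and mitochondrial symbols 2.08%.

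The share of these 4 features moved every comparison with other cells. Set against the other kept Ujumqin cells, the median log2 level of the 1748 genes with at least 50 CPM in either group was −1.04, and −0.19 when the 4 features were left out of the totals, a shift of 0.85. Levels of the members against the other kept cells come from the contrast that chose the members, so the folds are a description and no test was made. Of the 1748 genes, 24 were at least 4-fold higher in the members, 1.37%, and 316 were at least 4-fold lower, 18.1%. With the 4 features left out of the totals these counts were 60 and 191. At a minimum of 10 CPM, the minimum used for the gene lists that follow, 58 of 4154 genes were higher, 1.40%, and 935 lower, 22.5%, with a median log2 level of −1.13 (−0.28 without the 4 features). With the 4 features left out of the totals, 96 of these 4154 genes were higher and 566 lower. List counts given without the 4 features are to be read against these.

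Haem synthesis genes were high as a group. Of the 8 genes of the list with at least 10 CPM, ALAS2 left out because the rule used it, 6 were at least 4-fold higher than in other kept cells and 0 lower. The median log2 level of the list was 2.70, which lay 3.83 above the median of all genes tested. ALAD, which makes the pyrrole porphobilinogen, stood at 632 CPM against 91.6 CPM (log2 2.79, interval 2.75 to 2.82). FECH, which inserts iron into the finished ring, stood at 41.8 CPM against 2.67 CPM (log2 3.97). TMEM14C, which helps porphyrin across the inner mitochondrial membrane, stood at 1657 CPM against 290.3 CPM, and PPOX and the transporter ABCB10 were also past 4-fold. UROD, at 267 CPM against 69.5 CPM, and ABCB6, a porphyrin transporter at 70.6 CPM (log2 1.44), were higher by less. All 8 genes tested thus stood higher in the members.

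Haem and iron handling were mixed. BLVRB, a reductase of flavins and biliverdin, had the largest fold among symbols with at least 50 CPM outside the rule, at 2103 CPM against 160.1 CPM (log2 3.72). HEBP1, a small haem-binding protein, stood at 585 CPM against 102 CPM, whereas HEBP2 stood at 0.450 CPM against 10.9 CPM. Of the 10 iron genes tested, 2 were at least 4-fold higher and 1 lower, or 3 and 0 without the 4 features with most UMIs in the totals. STEAP3, which reduces iron freed from transferrin, stood at 50.7 CPM against 4.55 CPM, and SLC25A37, the mitoferrin that carries iron into the mitochondrion, at 40.6 CPM against 3.19 CPM. The lower gene was ACO1, an iron-sensing protein, at 2.78 CPM against 11.3 CPM. The ferritin gene FTH1 stood at 13939 CPM against 5139 CPM. The transferrin receptors TFRC and TFR2 stood at 6.61 CPM against 1.29 CPM and 2.26 CPM against 0.152 CPM, both under the minimum for the count.

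Membrane genes went both ways on totals of all UMIs. With the 4 features with most UMIs left out of the totals, 4 of 8 were at least 4-fold higher and 0 lower. ANK1, the ankyrin that ties spectrin to the membrane, stood at 24.6 CPM against 1.94 CPM. It was among the 2 of 8 membrane genes tested that were at least 4-fold higher, and ADD1, a broadly expressed adducin, was lower at 5.24 CPM against 31.8 CPM. RHAG, the Rh-associated glycoprotein, stood at 6.98 CPM against 0.193 CPM and SPTB, a spectrin chain, at 6.15 CPM against 0.518 CPM, both under the minimum for the count. Of the transcription factors that the rule did not use, GATA1 and ZFPM1 (FOG1, a partner of GATA1) reached 10 CPM, ZFPM1 at 21.2 CPM against 13.0 CPM. NFE2 stood at 5.74 CPM against 0.548 CPM and TAL1 at 1.02 CPM against 0.102 CPM.

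**Figure D2:**
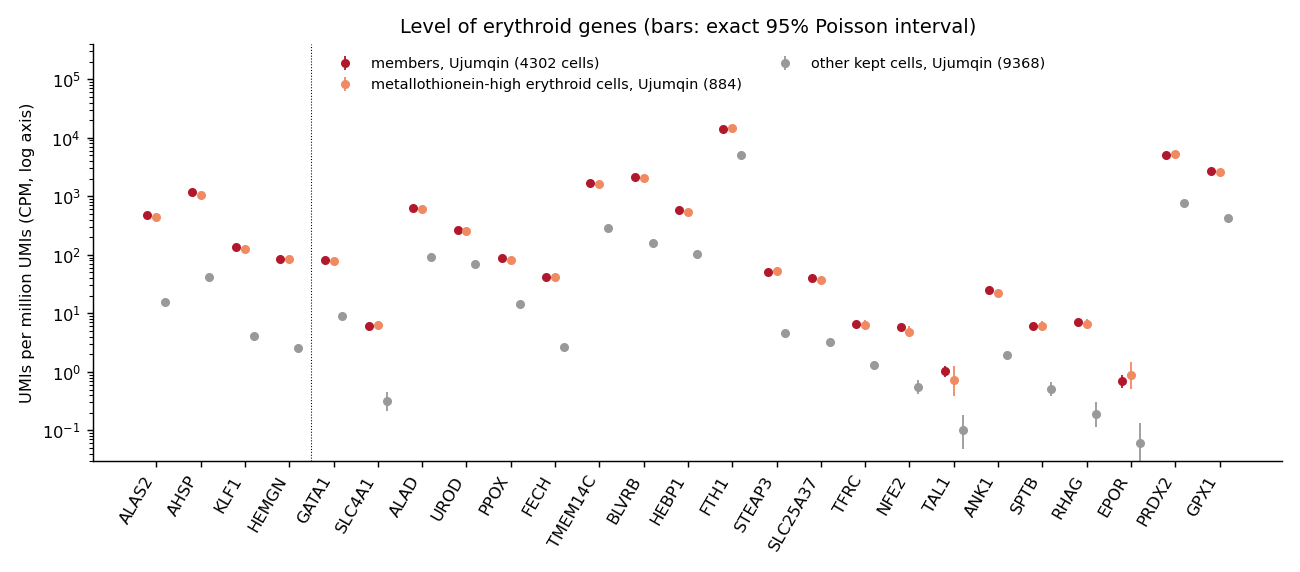
Levels of erythroid genes in UMIs per 1000000 UMIs (CPM, log axis) in the Ujumqin library, for members, metallothionein-high cells and other kept cells, with exact 95% Poisson intervals as bars and the 4 genes of the rule left of the dotted line. Members and metallothionein-high cells lie within 2-fold of each other at each gene drawn, as at ALAD with 632 and 603 CPM, and other kept cells lie below both, with 91.6 CPM.

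Genes of blood progenitors and of growth factor signalling stood under 10 CPM in the members. KIT, the stem cell factor receptor, gave 0.193 CPM in the Ujumqin members, MYB 0.247 CPM, RUNX1 0.0322 CPM and GATA2 0 CPM, while CD34 gave 5.73 CPM against 1.29 CPM in other kept cells. EPOR, the erythropoietin receptor, gave 0.686 CPM against 0.0609 CPM, and no gene of the erythropoietin and KIT list reached 10 CPM. No carbonic anhydrase reached it either, with CA2 at 2.33 CPM and CA1 at 0. Of the regulators that distinguish early from adult red cells, LIN28B, an RNA-binding protein of early development, gave 23.2 CPM and BCL11A, which silences early globins in adult cells, gave 0.0429 CPM. In the other kept cells LIN28B gave 112 CPM and BCL11A 0.366 CPM, so neither was particular to the members. Of the 6 genes of this list that were tested 4 were at least 4-fold lower and 0 higher. Without the 4 features with most UMIs in the totals 2 were lower and 0 higher.

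Antioxidant genes also went both ways on totals of all UMIs. PRDX2, the peroxiredoxin of red cells, stood at 5142 CPM against 775 CPM (log2 2.73, interval 2.72 to 2.74), and GPX1, a glutathione peroxidase, at 2689.7 CPM against 424 CPM. GCLM, the regulatory subunit of the enzyme that starts glutathione synthesis, was the other antioxidant gene past 4-fold. PRDX1 and GPX4, both widely expressed, were at least 4-fold lower, at 548 CPM against 2312 CPM and 315 CPM against 1754 CPM. The median log2 level of the 11 genes tested was −0.99, or −0.14 without the 4 leading features. With these features left out of the totals, 3 of the genes were at least 4-fold higher and 0 lower.

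Several glycolysis genes were low. Of 18 genes of glycolysis and the pentose pathway, 7 were at least 4-fold lower and 0 higher, and the median log2 level was −1.65, or −0.80 without the 4 leading features. With these features left out of the totals, 4 were lower and 2 higher, where all 4154 genes tested gave 566 lower and 96 higher. GAPDH stood at 870.2 CPM against 3582 CPM and PKM, the pyruvate kinase of most tissues, at 25.8 CPM against 368 CPM. PKLR, the pyruvate kinase of red cells and liver, gave 4.64 CPM against 0.112 CPM, and BPGM, which makes the effector of haemoglobin 2,3-bisphosphoglycerate, 10.7 CPM against 2.75 CPM. Among 11 heat shock and immediate-early genes 2 were lower, FOS and ATF3, and among 6 autophagy genes 1 was lower, GABARAPL1, with 0 higher in either list. Of 6 hypoxia genes 1 was lower, the collagen hydroxylase P4HA1, and of 6 cell cycle brakes 2 were lower, CDKN1A and CDKN1C. Without the 4 leading features in the totals, 1 heat shock or immediate-early gene and 0 autophagy genes were lower, and 1 hypoxia gene was higher.

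Metal carriers differed beside the metallothioneins. Of 4 genes of zinc and metal handling that the rule did not use, 2 were at least 4-fold higher. SLC39A8, a metal importer, stood at 25.6 CPM against 1.26 CPM and SLC30A10, an exporter of manganese and zinc, at 19.5 CPM against 1.11 CPM, whereas the zinc importer SLC39A10 was lower at 1.93 CPM against 21.6 CPM. SLC30A1, the zinc exporter of the plasma membrane, stood at 19.0 CPM against 5.74 CPM. MTF1 itself gave 0.826 CPM.

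Genes of dividing cells were read at about the level of the rest. Of 33 genes of G2 and M phase with at least 10 CPM 0 were 4-fold higher and 0 lower, with a median log2 level of −0.57 that turned to 0.29 when the 4 leading features were left out of the totals. For 21 genes of S phase the median was −0.60, or 0.25 without these features, and HELLS was the only gene past 4-fold, lower in the members. Without these features 0 genes of S phase were past 4-fold. TUBB4B, a tubulin counted with G2 and M phase, stood at 444 CPM against 433 CPM.

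Markers of other tissues were low. All 11 genes of the ExE endoderm list that were tested, 8 of 8 of mesenchyme, 4 of 4 of gut and epithelium, 3 of 3 of neural tissue and 2 of 2 of cardiomyocytes were at least 4-fold lower in the members. AHSG, a plasma glycoprotein of yolk sac and liver, stood at 67.0 CPM against 5211 CPM, and VIM, the intermediate filament of mesenchyme, at 198 CPM against 4485 CPM. Of the 513026 AHSG UMIs of the other kept cells, 503267 lay in 241 cells picked by ExE endoderm genes, AHSG among them. AHSG stood at 123 CPM in 250 cells picked by megakaryocyte genes and at 46.6 CPM in 117 picked by endothelial genes. Low AHSG was thus not particular to the members. Of 3 endothelial genes 2 were lower, PECAM1 and KDR, and CDH5 gave 0.0429 CPM. In the macrophage list 1 gene reached 10 CPM and was under 4-fold, with C1QA at 0.0107 CPM and CSF1R at 0. The megakaryocyte genes GP1BB and CLEC1B gave 23.1 CPM and 14.2 CPM, and MEIS1 was the early blood progenitor gene tested, lower at 1.68 CPM against 12.8 CPM.

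**Figure D3:**
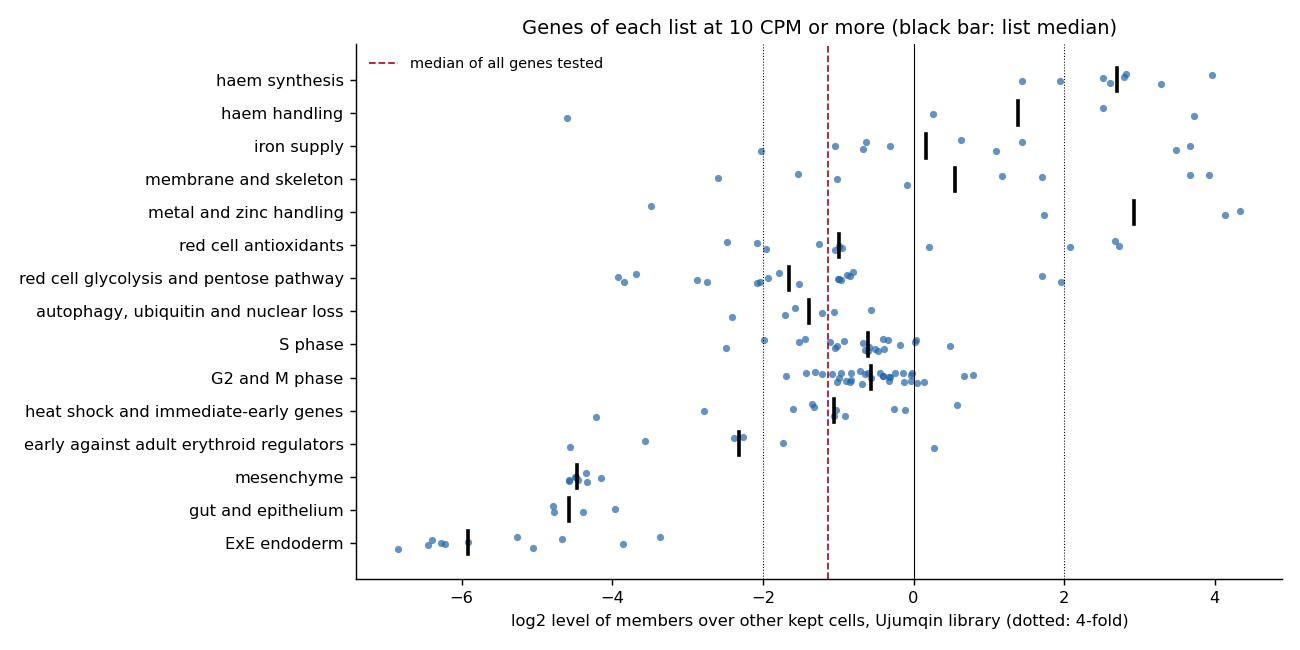
Each point is a gene with at least 10 CPM in the members or the other kept cells of the Ujumqin library, placed by its log2 level in members over other kept cells, with the median of its list as a black bar, the median of all genes tested (−1.13) as a dashed line and 4-fold as dotted lines. Haem synthesis lies furthest right of that line among the erythroid lists, and mesenchyme, gut and ExE endoderm lie furthest left.

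Genes named for their fold alone repeated these groups. Beside the genes above, the symbols with the largest folds over other kept cells, at 50 CPM or more, were ADIRF, HBQ1, FHL2, NUCB2 and TSPO. HBQ1, the theta globin, stood at 94.4 CPM against 9.19 CPM, and TSPO, a protein of the outer mitochondrial membrane, at 859 CPM against 137 CPM. At the low end stood TTR, SERPINA1, AQP8, AHSG, TF, FETUB, S100G, AFP and APOA1, most of them products of yolk sac and liver, followed by IGFBP5, WFDC2, FST, CCND1 and S100A16. TTR, the carrier of thyroid hormone, gave 13.0 CPM against 1138 CPM. Of its 112024 UMIs in the other kept cells, 109758 lay in the 241 cells picked by ExE endoderm genes, TTR among them.

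The spread of a gene over single cells told constant genes from patchy ones. FTH1 had a median of 141 in every 10000 UMIs of a member, with the 5th and 95th percentiles at 96.2 and 180.5, and PRDX2 a median of 52.2 (34.0 to 66.2). BLVRB had a median of 21.3 (12.8 to 29.6). These genes were seen in every member or nearly so. The 43 members with most UMIs of a gene, 1% of the cells, held 2.51% of the FTH1 UMIs and 4.36% of the GATA1 UMIs, but 60.5% of the COL1A1 UMIs and 90.1% of the CRABP1 UMIs.

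Metallothionein-high erythroid cells were the group most like the members. They had a median of 19516 UMIs and 1519.5 genes. MT2 stood at 2709 CPM in them and 251 CPM in the members, MT1C at 762 and 45.6 CPM and MT1A at 322 and 7.69 CPM, which the rule fixed. Of 1028 genes with at least 50 CPM, 4 were at least 2-fold higher in the members, 0.389%, and 5 were at least 2-fold lower, 0.486%, with a median log2 level of 0.13. At 10 CPM the counts were 31 of 2717, 1.14%, and 8, 0.294%. Haem synthesis, haem handling, iron supply, membrane, glycolysis, S phase and G2 and M phase gave 0 genes past 2-fold in either direction. BLVRB stood at 2103 and 2079 CPM, FTH1 at 13939 and 14451 CPM, GATA1 at 81.7 and 77.2 CPM and AHSP at 1179 and 1033 CPM, members first. SLC39A8, the metal importer, differed by a log2 of −0.23 and the zinc exporter SLC30A1 stood at 19.0 and 17.9 CPM. Erythroid genes and metal carriers outside the metallothioneins were thus read at similar levels on both sides of the limit.

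The named genes past 2-fold at 50 CPM were CALD1, the mesenchyme genes VIM and COL1A1, and genes of yolk sac and liver. Of the 4 genes higher in the members 3 have a symbol, CALD1 (log2 1.83), VIM (1.25) and COL1A1 (1.11). Of the 5 lower genes 4 have a symbol, AHSG (log2 −3.08), TTR (−3.06), SERPINA1 (−3.01) and AFP (−1.95). The metallothioneins of the rule summed to 5352 CPM in the 241 cells picked by ExE endoderm genes. In the 250 cells picked by megakaryocyte genes they summed to 40.5 CPM, and in the members to 305 CPM. RNA of such cells in an erythroid barcode would shift its metallothionein share, so the limit may set the direction of their genes in part. This was not tested. The 8 metallothionein-high cells with most AHSG held 89.6% of its UMIs in that group, where the 43 members with most AHSG held 21.9%. Without these cells, which were picked by the gene itself and serve as a description, AHSG stood at 53.0 CPM in members and 59.6 CPM in metallothionein-high cells. TTR, SERPINA1 and AFP had 88.7%, 89.7% and 75.3% of their UMIs in the top 8 metallothionein-high cells. A cell with at least 5 UMIs, and 5 in every 10000, of AHSG, AFP, TTR and SERPINA1 made up 1.23% of members (53 cells) and 1.70% of metallothionein-high cells (15 cells). At 10 CPM the antioxidant GLRX, the growth factor IGF2, the cycle inhibitor CDKN1C, CRABP1 and the megakaryocyte genes GP1BB and CLEC1B were also at least 2-fold higher in the members.

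**Figure D4:**
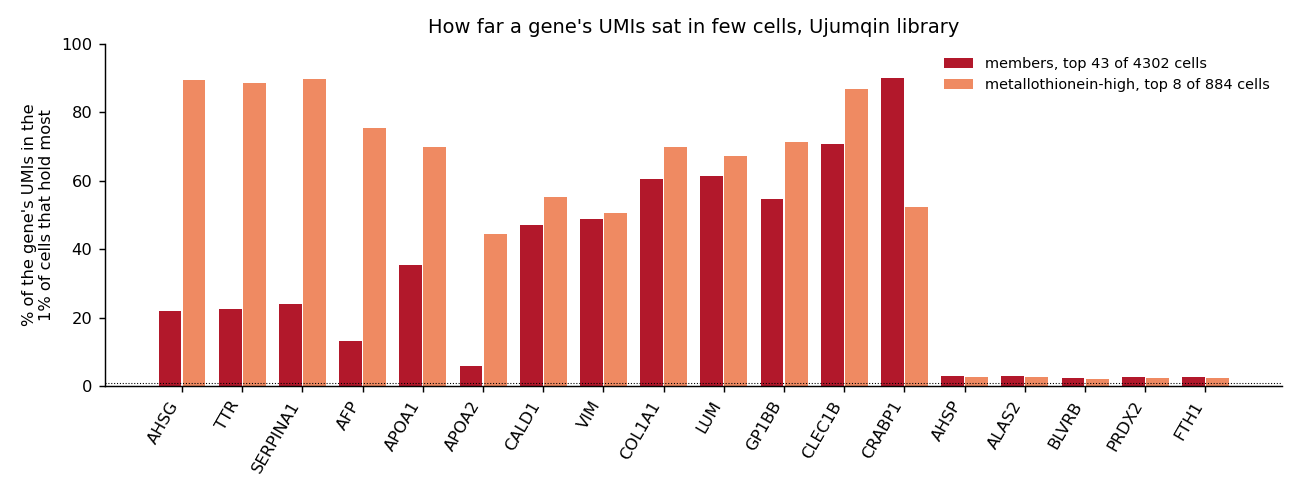
Bars give, for each gene, the percent of its UMIs held by the 1% of cells with most of them, for 4302 members (top 43) and 884 metallothionein-high cells (top 8) of the Ujumqin library, with a dotted line at 1%. The liver and yolk sac genes AHSG, TTR, SERPINA1 and AFP reach 75.3 to 89.7% in metallothionein-high cells, CRABP1 reaches 90.1% in members, and AHSP, ALAS2, BLVRB, PRDX2 and FTH1 stay low in both.

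Within the Ujumqin members the summed erythroid lists moved little with the metallothioneins. The members were split into 1034 cells with no metallothionein UMI, 2269 with fewer than 5 in every 10000, 618 with 5 to under 10 and 381 with 10 or more. From the lowest to the highest group the haem synthesis genes summed to 4144, 4048, 4046 and 3943 CPM and the antioxidant genes to 10076, 9892, 9833 and 9844 CPM. SLC30A10 stood at 20.5, 19.3, 18.7 and 19.2 CPM and SLC30A1 at 20.7, 18.9, 18.2 and 16.5 CPM. Neither zinc exporter was higher where the metallothioneins were, while MT2, which the split used, ran from 0 to 988 CPM. The G2 and M phase genes summed to 2585, 2588, 2358 and 2183 CPM, and the share of the 4 leading features was 44.1, 45.3, 48.4 and 48.5%. Without these features in the totals, the G2 and M phase sums were 4625, 4734, 4569 and 4242 CPM. The megakaryocyte genes summed to 109, 30.1, 5.83 and 22.1 CPM.

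Clustering of the 4302 Ujumqin members alone gave 9 sub-clusters, and since their genes defined them the following is a description. Sub-cluster 1 (1118 cells) was led by SMG1, CDK1, KIF23, CDC20 and TOP2A, and its G2 and M phase genes summed to 3703 CPM. Sub-cluster 2 (1099 cells) had 869 CPM of these genes, a median of 16965 UMIs, and weak leaders such as DMAC1 and MCM5, a subunit of the replicative helicase. Sub-cluster 3 (841 cells) was led by the histone gene HIST2H2AC, FBXO5 and CLSPN, and its S phase genes summed to 1068 CPM against 462 CPM in sub-cluster 1. Sub-cluster 4 (595 cells) was led by HIST2H2AC, MT1C and H1-2, with FBXO5 and MT2 next, and had the highest share of the 4 leading features, 51.8%. MT2 was also the fourth leader of sub-cluster 2. The metallothioneins of the rule summed to 293, 359.9, 258 and 403 CPM in sub-clusters 1 to 4, so both cell cycle genes and metallothioneins varied between them. GATA1 stood between 75.1 and 99.0 CPM in them and haem synthesis between 4008 and 4409 CPM.

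Sub-cluster 5 (171 cells) was led by MYH10, HMMR and SLC39A8, had a median of 30360 UMIs, and held 54.4 CPM of ANK1 and 59.8 CPM of EPB41, a protein of the membrane skeleton. Sub-cluster 6 (155 cells) was led by mitochondrial symbols, which gave 5.68% of its UMIs, and had a median of 7014 UMIs. This median was the lowest of the 9, and its AHSP level was 1222 CPM, near the 1221 CPM of sub-cluster 1.

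The last 3 sub-clusters carried genes of other cells beside the erythroid genes. Sub-cluster 7 (117 cells) was led by ACTA2, COL12A1 and RBP4, and its mesenchyme genes summed to 6999.9 CPM against 66.9 to 124 CPM in sub-clusters 1 to 6. Its median of 42438 UMIs was the highest of the 9, its AHSP level was 593 CPM, and Scrublet marked 47.9% of its cells. Sub-cluster 8 (106 cells) was led by CRABP1, WFDC2 and CD24, its neural genes summed to 481 CPM, and Scrublet marked 42.5%. Across sub-clusters 1 to 6 Scrublet marked between 0 and 0.273%. The part of doublets in sub-clusters 7 and 8 was not tested. Without all barcodes marked by Scrublet, CALD1, VIM and COL1A1 stayed higher in members than in metallothionein-high cells, at log2 levels of 1.88, 1.25 and 1.48. Cells of sub-clusters 7 and 8 that Scrublet did not mark stayed among the members in this comparison.

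Sub-cluster 9 (100 cells) was led by MMRN1, AQP11, CLEC1B, TREML1, THBS1 and PLEK, genes of platelets and megakaryocytes among them. CLEC1B stood at 880.2 CPM and GP1BB, a chain of the von Willebrand factor receptor, at 1286 CPM, against at most 6.74 and 8.47 CPM in any other sub-cluster. GATA1 was 187 CPM, above the 37.8 to 99.0 CPM of the others, and AHSP was 886 CPM and HEMGN 56.1 CPM. Its median was 10538 UMIs, the 4 leading features gave 27.0%, and Scrublet marked 1 cell. CALD1 stood at 2346 CPM in sub-cluster 9, above the 658 CPM of sub-cluster 7. With the 4 megakaryocyte genes GP9, GP1BB, CLEC1B and TREML1 held to the limits of the erythroid rule, 91 members met both, 2.12% (exact binomial interval 1.71 to 2.59%), and 89 of them were in sub-cluster 9. These cells thus met the erythroid rule and carried megakaryocyte genes in the same barcode. The 250 other kept Ujumqin cells that met these megakaryocyte limits had GATA1 at 209.5 CPM and AHSP at 123 CPM. They had failed the erythroid rule, which used AHSP, so their lower AHSP was set by the choice of cells. The part of doublets and free RNA in sub-cluster 9 was not tested.

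Sub-clusters 7 to 9, set apart after their values were seen, held 323 members, 7.51%. They held 93.8% of the members' CALD1 UMIs, 88.5% of COL1A1, 82.7% of VIM and 97.2% of CLEC1B, but 5.74% of AHSP. The 3979 members left without them had CALD1 at 5.09 CPM, VIM at 37.8 CPM and COL1A1 at 7.06 CPM. These values cannot be set directly against the metallothionein-high group, which kept its own cells high in these genes. Without the 8 cells that held most of each gene, that group had CALD1 at 9.55 CPM, VIM at 42.1 CPM and COL1A1 at 7.96 CPM. All members without the 43 cells that held most of each gene had 39.8, 104 and 22.7 CPM, higher at each gene. With sub-clusters 7 to 9 removed from the members alone, 0 genes were at least 2-fold higher in the members left and 7 were lower. A removal from 1 side can set such counts in part. Against other kept cells 25 genes were higher and 387 lower in the members left.

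**Figure D5:**
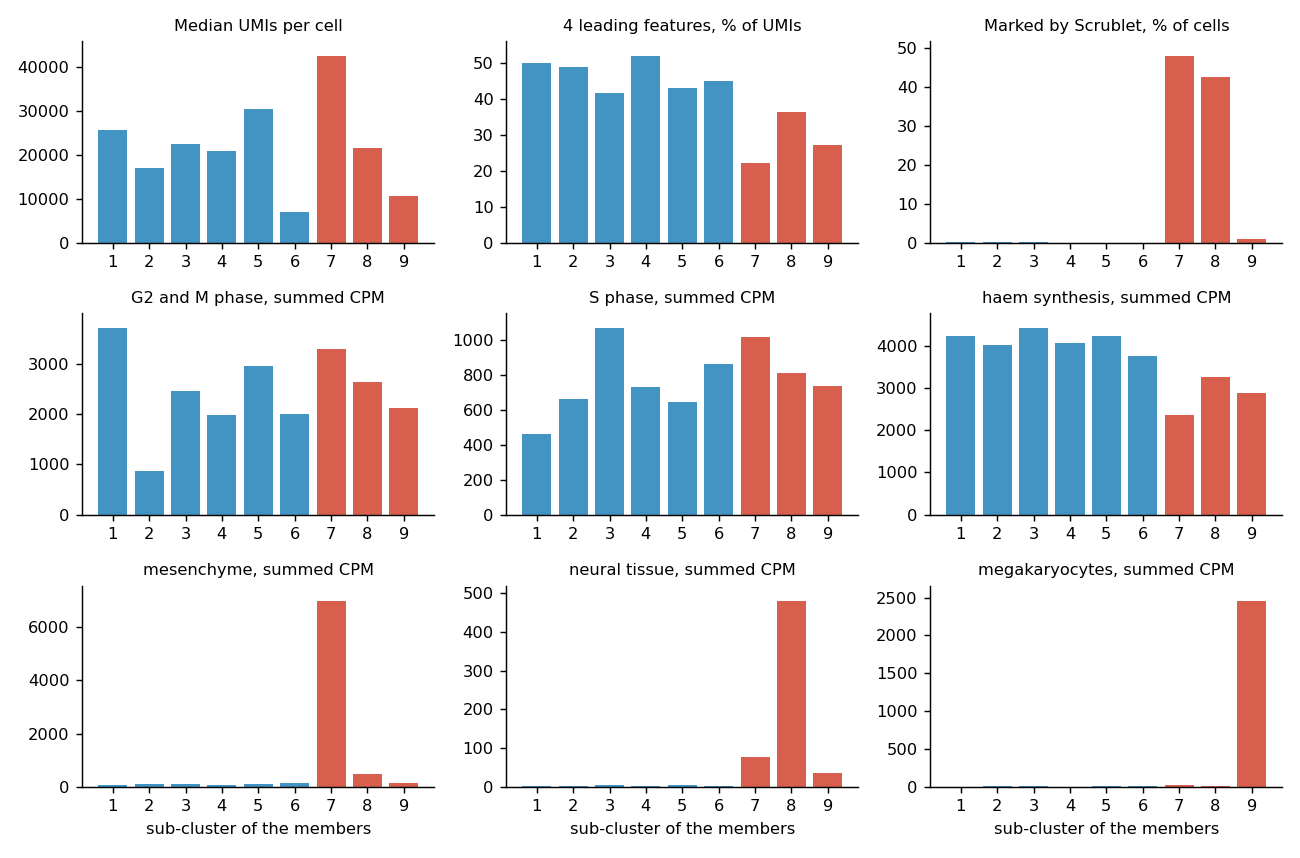
Bars give a value for each of the 9 sub-clusters of the Ujumqin members, with sub-clusters 7 to 9 in red: median UMIs per cell, the share of UMIs on the 4 leading features, the share of cells marked by Scrublet, and summed levels in CPM of 6 gene lists. G2 and M phase genes range from 869 CPM in sub-cluster 2 to 3703 CPM in sub-cluster 1, and mesenchyme, neural and megakaryocyte genes each peak in sub-cluster 7, 8 or 9.

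The number of genes in a member varied at equal depth. With each of 4300 members thinned to 2000 UMIs, quartiles of 1075 cells had medians of 367, 406, 438 and 496 genes. The 4 leading features gave 54.3, 49.6, 45.9 and 34.9% of their UMIs. These features were part of the 2000 UMIs, so a larger share of them left fewer UMIs for other genes. The split thus set this relation at least in part. Scrublet marked 0.372% of the lowest quartile and 8.65% of the highest, and 275 of the 323 cells of sub-clusters 7 to 9, 85.1%, were in the highest. On totals without the 4 features, 135 of 1677 genes were at least 2-fold higher in the highest quartile than in the lowest and 6 were lower. The highest were led by NRGN, CLEC1B and CALD1, and all 6 mesenchyme genes tested were among them. The lower genes with a symbol were MT1C (log2 −1.86), the clotting factor gene F10 (−1.50), MT2 (−1.14) and APOA2 (−1.02). MT2, a gene of the rule, stood at 633 CPM in the lowest quartile and 287 CPM in the highest. Of the haem synthesis genes 8 were tested and 0 passed 2-fold, with a median log2 level of −0.47, where all genes had 0.24.

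The 4 Hulunbuir members were shallower than most Ujumqin members. They held 11305, 7974, 6321 and 8407 UMIs, and 23, 8, 12 and 8 of these were on ALAS2, AHSP, KLF1 and HEMGN. The 4 leading features gave 42.2, 26.8, 24.1 and 42.8% of their UMIs, far above the 0.00489% of other Hulunbuir cells. These values lie in the full range of the Ujumqin members, 3.88 to 66.7%. The values of 26.8 and 24.1% lie under the 5th percentile of the Ujumqin members, 27.7%. KLF1 and HEMGN were seen in the first cell and in no other. GATA1 and SLC4A1 gave 0 UMIs in all 4, which allows up to 88.2 CPM over the 4 cells by 3 counts, so the GATA1 level of the Ujumqin members was not excluded at this depth. None of the 4 barcodes occurred in the Ujumqin library.

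Pooled, the 4 Hulunbuir cells were near the Ujumqin members in some abundant genes and below them in others. ENSOARG00020004314 stood at 112065 CPM against 173885 CPM (log2 −0.63, interval −0.68 to −0.59) and ENSOARG00020015536 at 175376 CPM against 203861 CPM (log2 −0.22), and the 4 leading features together gave 35.4% against 45.8%. PRDX2, by contrast, stood at 5117 CPM (interval 4385 to 5936) against 5142 CPM, FTH1 at 13497 CPM (12291 to 14790.4) against 13939 CPM and BLVRB at 2147 CPM (1683 to 2699) against 2103 CPM. ALAS2, on 10 UMIs, stood at 294 CPM (141 to 541) against 475 CPM. Of 148 features with at least 20 UMIs in the 4 cells, 15 were at least 2-fold higher than in the Ujumqin members, 10.1%, and 2 were lower, 1.35%, with a median log2 level of 0.15. All 10 mitochondrial symbols tested were among those higher, such as MT-ND4 at 11556 CPM against 3956 CPM, and mitochondrial symbols gave 6.12, 8.74, 6.06 and 5.03% of the UMIs of the 4 cells. PPP1R14B was the other symbol that was higher, and GPX1 was the symbol that was lower, at 823 CPM (547 to 1190.0) against 2689.7 CPM. Breed, library, cell quality and the small number of cells cannot be told apart in these values.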

How the data were processed

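Dissociated E16 embryos of each breed, pooled, were read with 10x Genomics 3′ chemistry. The authors deposited the counts of UMIs per feature and barcode without normalization, made with Cell Ranger against the Rambouillet sheep assembly. The matrix headers and methods give version 5.0.0 and the submitters' processing notes 3.1.0. Of 26478 features, 9808 have no symbol. A symbol on several features was taken at its first feature.

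Barcodes were kept when 200 or more genes were detected and mitochondrial symbols took less than 10% of their UMIs. The members, the 28 gene lists and the tests were chosen with earlier results of these data known. Group levels are summed counts per 1000000 UMIs. Log2 levels have exact conditional intervals, with a group under 3 counts set to 3. With 1 library per breed no test was run. Genes were named when they belonged to the rule or label, were among up to 8 of a list by level in the members (at least 50 UMIs), among the 15 symbols with the largest fold in each direction, or among the 10 features with most UMIs. Some genes that this rule takes are not reported here. Genes named outside this rule, the 4 leading features and the limits for cells of other types were chosen after seeing the values.

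Sub-clusters came from Leiden clustering (resolution 0.5, 2000 variable genes, 20 components, 20 neighbours) on cells scaled to 10000 UMIs. Doublets were scored with Scrublet and kept. Steps were tested on simulated data. Clustering and doublet scores used scanpy 1.11.5 with leidenalg 0.10.2, and intervals used scipy 1.17.1, under Python 3.11.15.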

Additional observations from a re-analysis of the deposited data

Results flagged for a closer look

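Outside the cell filter, 78 Ujumqin barcodes met the erythroid and metallothionein limits of the members. They are cells that none of the comparisons used. All 78 exceeded the mitochondrial limit of 10%, with a median of 13.1% mitochondrial UMIs and 3475 UMIs. In the Hulunbuir library 0 barcodes outside the filter met these limits.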

How the results depend on the processing

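No paired analysis was possible because each breed has a single library and no test was run. Among the counts of members and genes and the number of sub-clusters, 58 values stayed within 1.5 times under the alternatives and 20 did not, and the cause was not tested. Ujumqin members ranged from 3664 (metallothionein limit 7.5) to 4767 (limit 30). Hulunbuir members were 0 with a mitochondrial limit of 5% and 2 with an erythroid limit of 10 UMIs and 10 in every 10000. With that erythroid limit 1 gene was higher and 1 lower than in metallothionein-high cells, and with a metallothionein limit of 30 there were 0 lower, AHSG and AFP turning to 0.11 and 0.30 (log2). With the mean of the cells' CPM 13 genes were higher and 188 lower than in other kept cells. Without mitochondrial, ribosomal protein and haemoglobin symbols in the totals 517 were lower. A minimum of 10 CPM gave 58 higher and 935 lower, and 31 and 8 against metallothionein-high cells, and no minimum gave 227, 4315, 556 and 1864 in the same order. Added after seeing the data, totals without the 4 leading features gave 60 and 191, and 11 higher than metallothionein-high cells. With sub-clusters 7 to 9 taken from the members alone, 0 genes were higher than in metallothionein-high cells, and CALD1, VIM and COL1A1 went to −2.04, −1.14 and −1.88. The metallothionein-high group kept its own cells high in these genes, so the one-sided removal can set this turn. At resolution 1 the sub-clusters were 13 in place of 9. Low counts limit the precision for the 4 Hulunbuir members and for genes under 10 CPM.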
